A study of Homo sapiens with 4 samples.

Results

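Peaks of open chromatin that carry no gene symbol and lie wholly inside a very long protein-coding gene were followed across all the genes of that kind. The members are the unlabelled peaks fully inside a RefSeq protein-coding gene body of 500 kb or more on the 22 autosomes, with 2 genes left out by the rule. There were 3208 such peaks of 60875 in all, in 298 of the 301 genes that met the rule. The rule used only the missing symbol, the position and the gene length, and no measured change. Of the members, 17 lay inside both IQCJ-SCHIP1 and the nested SCHIP1 and were counted a single time in totals of peaks, while both genes stand in totals of genes, and 54 lay also inside a shorter protein-coding gene.

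ATAC-seq, which tags accessible DNA with a transposase and reads where the tags landed, was applied to day 6 cardiac progenitors. The parent line throughout was WTC11, an established human pluripotent line made by reprogramming and labelled WT, so a single line stands behind both groups. Of the 4 libraries, 2 came from progenitors of differentiations that ended in high cardiomyocyte purity and 2 from those that ended in low purity, and both groups went through the same cardiac progenitor differentiation. The study asked which regions of the progenitors go with the later purity. No value per library was analysed here: the authors' DESeq2 comparison gives, for each peak, a mean normalized count over all 4 libraries, a log2 fold change and its standard error (SE). Their marking Up goes with a negative fold change on the log2 scale and their marking Down with a positive one, and the sources used here do not give which purity group is the numerator. Changes are therefore placed on the Up side (negative) or the Down side (positive) and assigned to neither purity group. A peak is called changed where the authors' adjusted p, taken over all peaks, was under 0.05. Fewer cells with an open site and less opening per cell cannot be told apart in such bulk libraries. A peak that carried the symbol of, or overlapped, the marker gene was present for 8 of 9 cardiac progenitor markers (not for HAND2), 4 of 4 endoderm, 2 of 3 pluripotency (not for POU5F1), 3 of 3 endothelial and 3 of 3 neural markers, so the presence of peaks did not separate these cell types.

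Very long human genes are long because of their introns, and many of them encode adhesion molecules, receptors, channels and scaffolds of neurons, along with a smaller set expressed in muscle and heart. Their bodies can hold enhancers, which are stretches bound by transcription factors and opened in particular cell types, as well as internal start sites from which shorter transcripts begin. An open site inside a gene may act on that gene, on a gene nested in it or on a more distant one, and an ATAC-seq peak alone does not say which.

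A few unlabelled peaks sat on a start site that RefSeq lists inside the long gene, in some cases close to its 5′ end, and their sequences are known. In all, 98 members in 70 genes overlapped a listed start window (250 bases before to 50 after the start) of their own long gene, and 24 further members overlapped a start window of another gene. Sequences are shown for the pair of members that changed and that held such a window whole, in ZBTB20 and FGF14, and for 3 that did not pass, ARHGAP24, SYT1 and ESRRG, the last 3 chosen after their values were seen. The windows are from RefSeq on GRCh38.p14, written 5′ to 3′ on the strand of the gene, and capitals mark every match on either strand to 7 motifs. These were the CCAAT box with the letters of its name, the GC box spelled GGGCGG, the TATA box spelled TATAAA, the AP-1 site spelled TGACTCA, the site of GATA factors spelled AGATAA, the site of TEAD factors spelled CATTCC and the cyclic AMP element spelled TGACGTCA.
ZBTB20, chr3:114624896-114625195, minus strand: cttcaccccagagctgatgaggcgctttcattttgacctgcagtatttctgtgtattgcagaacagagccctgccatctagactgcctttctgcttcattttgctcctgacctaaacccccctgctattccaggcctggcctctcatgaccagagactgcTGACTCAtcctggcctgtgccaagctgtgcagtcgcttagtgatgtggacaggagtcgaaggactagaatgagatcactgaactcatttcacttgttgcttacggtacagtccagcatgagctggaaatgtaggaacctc
FGF14, chr13:102317655-102317954, minus strand: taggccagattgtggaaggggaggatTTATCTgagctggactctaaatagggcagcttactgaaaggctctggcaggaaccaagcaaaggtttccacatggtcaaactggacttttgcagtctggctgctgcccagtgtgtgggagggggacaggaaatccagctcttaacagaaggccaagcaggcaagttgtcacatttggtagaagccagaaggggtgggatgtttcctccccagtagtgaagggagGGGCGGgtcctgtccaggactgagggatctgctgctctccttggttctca
ARHGAP24, chr4:85827687-85827986, plus strand: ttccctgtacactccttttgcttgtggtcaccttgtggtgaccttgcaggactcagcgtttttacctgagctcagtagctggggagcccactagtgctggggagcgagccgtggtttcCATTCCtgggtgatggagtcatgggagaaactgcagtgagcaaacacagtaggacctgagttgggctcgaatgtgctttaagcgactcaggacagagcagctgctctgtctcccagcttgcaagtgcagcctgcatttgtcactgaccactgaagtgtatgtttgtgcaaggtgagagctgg
SYT1, chr12:78864524-78864823, plus strand: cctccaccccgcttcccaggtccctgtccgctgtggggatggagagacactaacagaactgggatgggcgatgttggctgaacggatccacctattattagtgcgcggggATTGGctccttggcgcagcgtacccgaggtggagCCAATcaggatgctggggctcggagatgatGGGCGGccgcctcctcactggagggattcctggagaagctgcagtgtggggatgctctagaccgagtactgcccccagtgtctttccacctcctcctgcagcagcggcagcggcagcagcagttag
ESRRG, chr1:217078238-217078537, minus strand: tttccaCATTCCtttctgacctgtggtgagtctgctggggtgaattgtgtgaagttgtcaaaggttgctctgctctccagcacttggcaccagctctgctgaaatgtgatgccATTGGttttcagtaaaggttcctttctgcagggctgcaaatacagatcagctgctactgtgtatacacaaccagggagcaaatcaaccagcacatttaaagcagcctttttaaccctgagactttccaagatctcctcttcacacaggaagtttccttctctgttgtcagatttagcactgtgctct
The ZBTB20 window held 1 AP-1 match and 4 CG dinucleotides, with 50.7% G or C, and the FGF14 window held 1 GC box, 1 GATA match and 1 CG dinucleotide, with 53.7% G or C. The SYT1 window had 62% G or C, 15 CG dinucleotides, 2 CCAAT boxes and 1 GC box. It lies close to the 5′ end of its gene, whose body begins at 78863982 on chromosome 12. The ARHGAP24 window held 1 TEAD match and the ESRRG window 1 TEAD match, 1 CCAAT box and 0 CG dinucleotides. Over all 35116 RefSeq start windows the median G or C content was 58.7% with 14 CG dinucleotides. The AP-1 letters were found in 4.95% of all windows, the GATA letters in 10.3%, the TEAD letters in 14%, the GC box in 45%, the CCAAT box in 34.6%, the TATA box in 11.5% and the cyclic AMP element in 1.85%. Matches of different motifs may overlap. A match is a description of these letters only.

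The peak over the internal ZBTB20 start changed to the Down side, with a log2 fold change of 1.63 ± 0.39 (SE, adjusted p = 0.0015) and a mean count of 65.4 per the authors' deposited table (chromosome 3, 114624736 to 114625210). ZBTB20 encodes a zinc finger repressor of transcription. The FGF14 peak stood at 1.65 ± 0.40 (SE, adjusted p = 0.00227) with a mean count of 49.7 per the authors' deposited table (chromosome 13, 102317585 to 102317969). FGF14 encodes an intracellular fibroblast growth factor homologue that modulates sodium channels. The only other changed peak over a listed start lay inside LSAMP, a cell adhesion gene of the nervous system, and overlapped part of the window of a noncoding gene, LOC107986116. It stood at 2.15 ± 0.59 (SE, adjusted p = 0.00855) per the authors' deposited table. For the 3 that did not pass, values were -0.98 ± 0.37 (SE, adjusted p = 0.102) for ARHGAP24, a GTPase-activating protein that turns Rac off, 0.53 ± 0.22 (SE, adjusted p = 0.143) for SYT1, the synaptic vesicle calcium sensor, and -0.90 ± 0.44 (SE, adjusted p = 0.269) for ESRRG, the estrogen-related receptor gamma gene, per the authors' deposited table. A PDE4D peak over part of a listed start missed the threshold narrowly, at -0.95 ± 0.32 (SE, adjusted p = 0.0535) per the authors' deposited table. Of the 98 members over a start of their own gene, 0 changed to the Up side and 2 to the Down side by the authors' DESeq2 comparison (2.04%). At an unadjusted p under 0.05 there were 4 and 8, and their median mean count was 79.1 and their median SE 0.32. Of the 3086 members over no listed start, 2.40% changed to the Up side and 5.48% to the Down side, at a median mean count of 34.3 and a median SE of 0.46.

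Over all members, 246 changed, 74 to the Up side and 172 to the Down side. The Up side share was 2.31% of members against 2.36% of all 60875 peaks, and the Down side share 5.36% against 3.64%. At an adjusted p under 0.01 the members called were 37 to the Up side and 97 to the Down side, where all peaks gave 1.06% and 2.05%, and at under 0.1 they were 126 and 211, where all peaks gave 3.60% and 4.77%. The typical member did not lean to a side: the median log2 fold change was -0.02, with the middle 50% of members between -0.44 and 0.38, against a median of 0.00 over all peaks. The median change was -1.46 (2.74-fold) among members called on the Up side and 1.59 (3.0-fold) among those called on the Down side. The smallest change that was called was 0.54 log2 units in size.

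**Figure D1:**
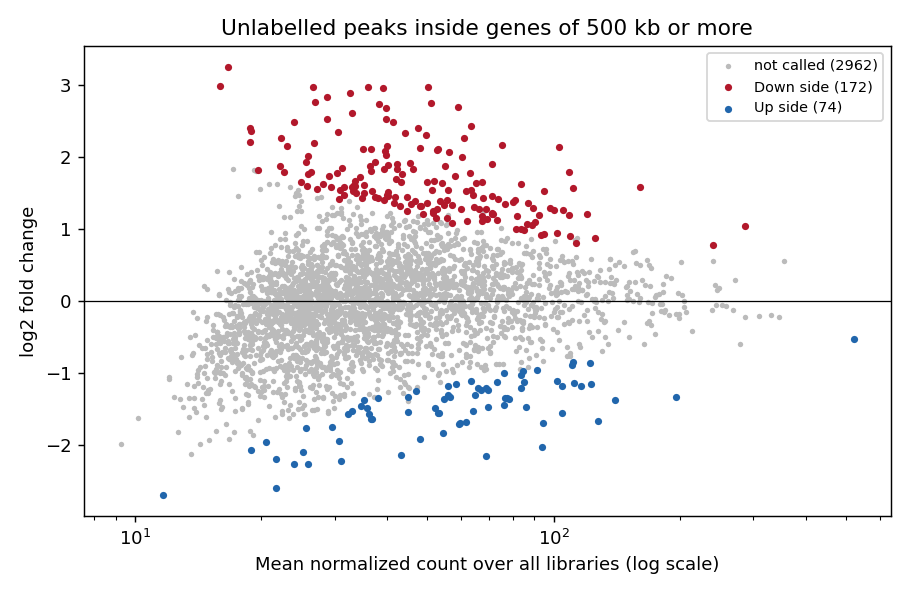
Log2 fold change of each of the 3208 members (vertical axis) against its mean normalized count over all libraries (horizontal, log scale), with the 172 peaks called on the Down side in red, the 74 on the Up side in blue and the rest in grey. Called peaks lie above and below a grey cloud centred near 0, and at the lowest mean counts the grey points lie mostly below 0.

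Members were weaker peaks than unlabelled peaks inside shorter genes. Their median mean count was 35.0 against 44.3, their median SE 0.45 against 0.41, and their median width 365 bp against 379 bp. Of the 20244 unlabelled peaks inside genes under 500 kb, 2.77% changed to the Up side and 3.79% to the Down side. When these were reweighted to the mean counts of the members, in 10 bins, the shares became 2.30% and 3.38%, so that members stood 1.98 percentage points higher on the Down side and level on the Up side. Peaks are not replicates and neighbouring peaks are not independent, so no test of this difference was made. Distance to a gene end was not matched: 9947 of the shorter-gene peaks but 246 of the members lay within 20 kb of an end. There the Down side shares were 2.70% and 4.47%. At 20 to 50 kb and 100 to 250 kb the share was higher in shorter genes (4.21% and 6.41% against 3.45% and 5.77%). At 50 to 100 kb it was lower (4.89% against 5.53%). Whether position accounts for the difference was not tested. The members were also split by mean count into 4 equal parts. With mean counts under 24.99 the Down side shares were 1.37% in long genes and 1.39% in shorter ones. At 53.8 and above they were 8.60% and 4.55%, and the Up side shares there were 5.61% and 4.03%. This last part has no upper limit: mean counts reach 521 in members and 5548 in shorter genes, so mean count is not matched within it. From 24.99 to 34.98 and from 34.98 to 53.8 the Down side shares were 4.11% and 7.36% in long genes and 3.09% and 4.54% in shorter genes, while the Up side shares were lower in long genes, at 1.12% and 1.75% against 1.86% and 2.75%.

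The Down side share rose with gene length up to 1000 kb. It was 1.83% in genes under 20 kb, 2.47% from 20 to 50 kb, 3.52% from 50 to 100 kb, 4.03% from 100 to 200 kb and 5.13% from 200 to 500 kb. Among the members it was 5.68% in genes of 500 to 1000 kb and 4.55% in genes of 1000 kb or more. The Up side share ran from 1.83% to 3.34% over the same classes without such an order, with 2.38% and 2.11% in the last pair. Reweighting each class to the mean counts of the members left the Down side order in place up to 1000 kb, from 1.69% to 5.58%. Distance to a gene end was not matched between the classes. Unlabelled peaks outside protein-coding genes gave 5.18% on the Down side, or 4.79% reweighted, which lies between the shorter genes and the members. The genes just over the 500 kb limit, PPP2R2B, PPFIA2 and SPOCK3, held 8, 5 and 3 members with 0 called by the authors' DESeq2 comparison, and 0, 0 and 1 at an unadjusted p under 0.05. Those just under it, DIAPH3, CPQ and ITPR2, held 6, 2 and 3 unlabelled peaks, of which 2, 0 and 1 were called on the Down side and 1 in CPQ on the Up side.

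**Figure D2:**
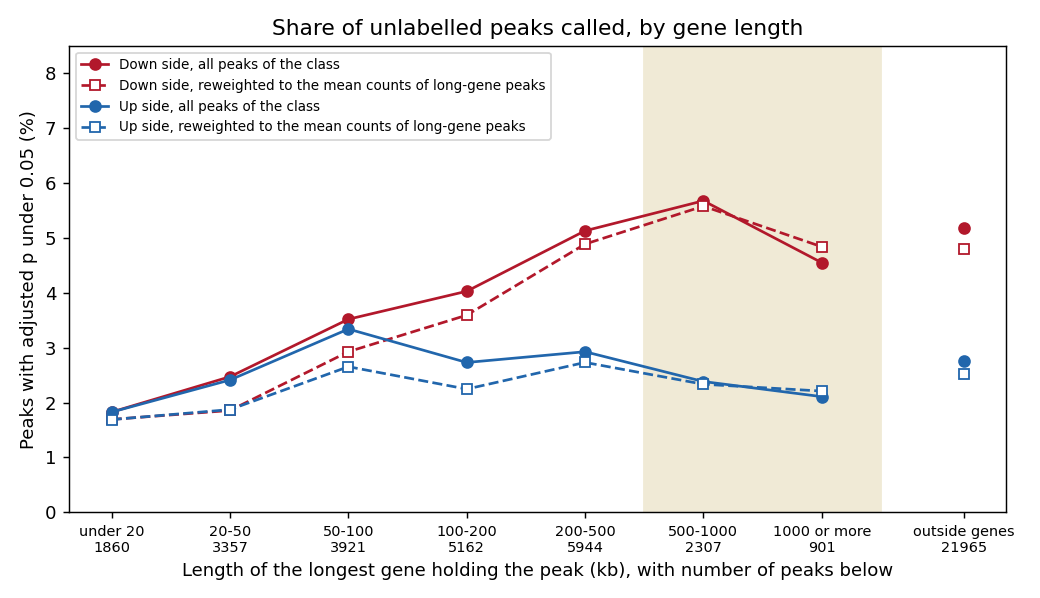
Share of unlabelled peaks with an adjusted p under 0.05 (vertical axis, percent) by the length of the longest gene that holds the peak (horizontal, kb), with the number of peaks under each class. Filled circles are the shares as counted and open squares the shares reweighted to the mean counts of the members, whose classes are shaded: the Down side (red) climbs from 1.83% to 5.68% and the Up side (blue) stays between 1.83% and 3.34%.

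By position, the Down side share was lowest within 20 kb of a gene end in shorter genes and at 20 to 50 kb in the members. Within 20 kb of a gene end 4.47% of members changed on the Down side and 4.07% on the Up side, from 11 and 10 called peaks. At 20 to 50 kb from an end the Down side share was 3.45%, at 50 to 100 kb 5.53%, at 100 to 250 kb 5.77% and at 250 kb or more 5.51%. Shorter-gene peaks went from 2.70% within 20 kb through 4.21% and 4.89% to 6.41% at 100 to 250 kb, a share above that of the members at the same distance. Bins of distance were chosen after the data were seen. Measured from the 5′ end, where the strand was known for 2724 members, the Down side share was 2.63% within 20 kb, 1.09% at 20 to 50 kb, 4.32% at 50 to 100 kb, 4.72% at 100 to 200 kb, 6.78% at 200 to 400 kb, 5.94% at 400 to 800 kb and 5.45% at 800 kb or more. The first pair of these bins rests on 3 and 1 called peaks. The median distance to the nearest end was 181 kb for members on the Down side, 173 kb for those on the Up side and 179 kb for the rest.

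**Figure D3:**
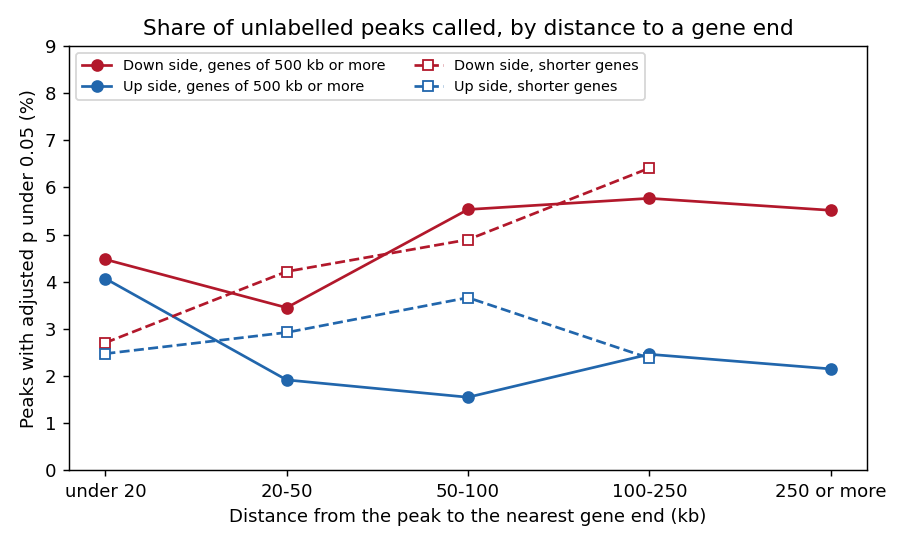
Share of unlabelled peaks with an adjusted p under 0.05 (vertical axis, percent) by distance from the peak to the nearest end of its gene (horizontal, kb), for members (filled circles, solid lines) and peaks inside shorter genes (open squares, dashed lines). At 100 to 250 kb the Down side shares (red) are 5.77% and 6.41% and the Up side shares (blue) 2.46% and 2.38%.

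Few of the symbol-bearing peaks of the same genes, which the authors' table assigns to the gene, changed. Of the 298 genes, 179 had at least 1 peak with their symbol, 193 peaks in all, with a median mean count of 87.0 and a median SE of 0.30. By the authors' DESeq2 comparison 0 of these changed to the Up side and 2 to the Down side (1.04%), and 3 and 10 at an unadjusted p under 0.05. Of all peaks with a symbol, 2.11% changed. The changed pair were PDE4D, a cyclic AMP phosphodiesterase gene active in heart and many other tissues, at 1.51 ± 0.47 (SE, adjusted p = 0.0284), and ATRNL1, an attractin-like gene, at 0.95 ± 0.32 (SE, adjusted p = 0.0449) per the authors' deposited table. PDE4D also had 2 of its 30 members on the Down side and ATRNL1 0 of 4. Across the 146 genes with at least 5 members and a symbol-bearing peak, the change at the symbol-bearing peak and the median change of the members had a Pearson r of -0.01 and a Spearman coefficient of 0.01, given as a description since all genes share the same libraries.

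By gene, the number of members ran from 1 to 43 with a median of 9. DAB1, an adaptor of reelin signalling in migrating neurons, held the most, 43, with 2 on each side. NAV2, a neuron navigator gene, held 36 with 2 on each side, and GSE1, a coiled-coil protein gene found in corepressor complexes, held 35 with 2 on the Down side. GSE1 was also the densest, at 6.91 members per 100 kb against a median of 1.24, and DPP10, a potassium channel accessory gene, the sparsest, at 0.071. PDE4D, the neuronal scaffold gene DLG2 and the receptor phosphatase gene PTPRM held 30 each, with 2, 0 and 1 on the Down side and 0, 0 and 1 on the Up side. MACROD2, a mono-ADP-ribose hydrolase gene, and TENM4, a teneurin adhesion gene, held 29 each, and CNTNAP2, a contactin-associated adhesion gene, and KAZN, a junctional protein gene, held 28 each. In these 4 genes between 0 and 1 members changed on the Up side, and 2 in MACROD2 and 1 in CNTNAP2 on the Down side. The DAB1 member with the smallest p stood at 2.34 ± 0.51 (SE, adjusted p = 0.000372), that of NAV2 at -1.45 ± 0.34 (SE, adjusted p = 0.00129) and that of GSE1 at 1.30 ± 0.34 (SE, adjusted p = 0.00564) per the authors' deposited table. The strongest DLG2 member did not pass, at -1.29 ± 0.47 (SE, adjusted p = 0.0773) per the authors' deposited table.

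Changed members were spread over many genes. At least 1 changed in 148 genes and none in 150, of which 45 held 10 or more members, among them DLG2 (3 and 2 on the Up and Down sides at an unadjusted p under 0.05), the teneurin gene TENM2 with 23 and the neurodevelopmental gene AUTS2 with 21, the last pair named after their values were seen. Of the 63 genes with 2 or more changed members, 35 had members on both sides, 23 on the Down side only and 5 on the Up side only. IQCJ-SCHIP1 and SCHIP1 hold the same members (1 called Up, 2 called Down), and with the pair taken as 1 gene there were 147 genes with a changed member, 62 with 2 or more and 34 with both sides, of 297. In the 249 genes with at least 5 members the median change per gene ran from -0.74 to 0.95. The extremes, named after their values were seen, were ADGRL3, a latrophilin adhesion receptor gene with 0 of 8 members called, and TAFA1, a secreted neuronal protein gene with 2 of 5 called on the Down side.

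In 12 genes at least 3 members changed on 1 side, in 11 of them on the Down side. LRMDA, a leucine-rich repeat gene linked to melanocyte differentiation, had the most, with 6 of 24 members on the Down side and 1 on the Up side. Its strongest member stood at 2.97 ± 0.43 (SE, 7.86-fold, adjusted p = 9.2e-09), 229.5 kb from the 5′ end, per the authors' deposited table (chromosome 10, 75660948 to 75661368). A second stood at 1.78 ± 0.29 (SE, adjusted p = 2.77e-07), 922 kb from the 5′ end, per the authors' deposited table. The other 4 on the Down side ran from 1.29 to 1.59, and the Up side member stood at -1.19 ± 0.29 (SE, adjusted p = 0.00191), per the authors' deposited table. Members that did not pass lay between them.

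ASTN2, which encodes astrotactin 2, a membrane protein of migrating neurons, had 4 of 26 members on the Down side and 1 on the Up side. Its strongest member had the smallest p of all members, at 2.14 ± 0.30 (SE, 4.40-fold, adjusted p = 1.39e-09) and a mean count of 103 per the authors' deposited table (chromosome 9, 116437266 to 116437998). A gap of 33.1 kb toward the 5′ end separated it from another pair of Down side members, at 0.99 ± 0.30 (SE, adjusted p = 0.0236) and 2.12 ± 0.43 (SE, adjusted p = 8.99e-05) per the authors' deposited table. The fourth, 320 kb from the 5′ end, stood at 2.74 ± 0.48 (SE, adjusted p = 3.4e-06) per the authors' deposited table. The Up side member, 544 kb from the 5′ end, stood at -1.92 ± 0.42 (SE, adjusted p = 0.000472) per the authors' deposited table.

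PRKCE, the protein kinase C epsilon gene, known for its part in protecting heart muscle from ischaemia, had 4 of 16 members on the Down side and 2 on the Up side. The Down side members ran from 0.91 to 1.47 and the Up side ones stood at -1.96 ± 0.65 (SE, adjusted p = 0.0421) and -1.84 ± 0.41 (SE, adjusted p = 0.000633) per the authors' deposited table. A gap of 18.0 kb separated the second of these from a Down side member at 0.99 ± 0.32 (SE, adjusted p = 0.0332) per the authors' deposited table. PALM2AKAP2, which encodes an anchor of protein kinase A, was the only gene with 3 members on the Up side, of 24. They lay 96.7, 105 and 125 kb from the 5′ end and stood at -1.12 ± 0.37 (SE, adjusted p = 0.0433), -1.32 ± 0.37 (SE, adjusted p = 0.0102) and -1.67 ± 0.27 (SE, adjusted p = 5.2e-07) per the authors' deposited table. Its 1 Down side member, 270.1 kb from the 5′ end, stood at 1.46 ± 0.38 (SE, adjusted p = 0.0053) per the authors' deposited table.

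**Figure D4:**
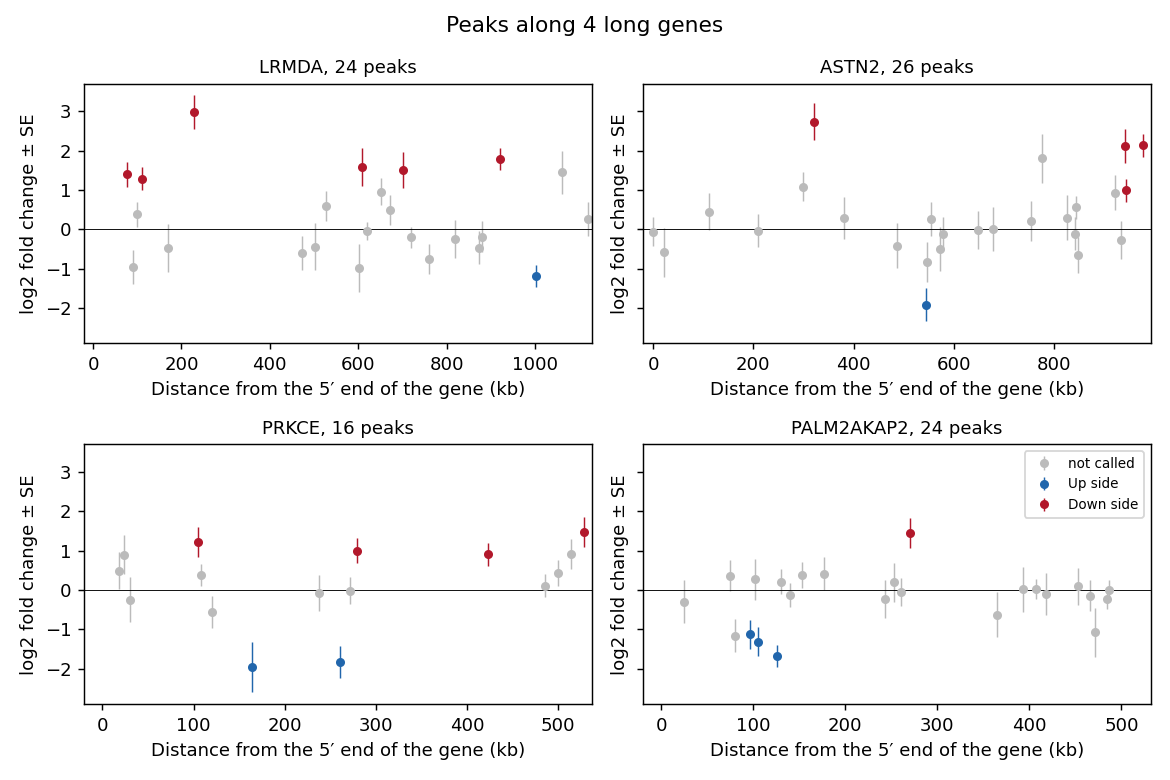
Log2 fold change ± SE of each member (vertical axis) against its distance from the 5′ end of the gene (horizontal, kb) in LRMDA, ASTN2, PRKCE and PALM2AKAP2, with called members in red (Down side) and blue (Up side). Called members of opposite sides occur within each of the 4 genes, and the 3 Up side members of PALM2AKAP2 lie between 96.7 and 125 kb, among members that were not called.

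The remaining 8 genes had 3 members each on the Down side. In FRMD4A, a cell polarity scaffold gene, these stood at 1.35, 1.83 and 1.74, and 15.1 kb from the nearest of them lay an Up side member at -1.15 ± 0.28 (SE, adjusted p = 0.00206), per the authors' deposited table. In SLIT3, a guidance ligand of the ROBO receptors, they stood at 1.26, 1.12 and 1.32, with 1 Up side member at -1.16 ± 0.27 (SE, adjusted p = 0.00112), per the authors' deposited table. CTNNA2, the neuronal alpha catenin gene, had values of 1.42, 1.76 and 1.34 and KIAA1217, a gene also called sickle tail, 1.36, 1.78 and 2.11 per the authors' deposited table. CAST, the gene of the calpain inhibitor calpastatin, had 1.93, 1.53 and 2.52, LRBA, a vesicle trafficking gene, 1.27, 1.84 and 1.90, and SLC24A2, a sodium, calcium and potassium exchanger gene, 1.78, 1.72 and 1.83 per the authors' deposited table. In the last 5 genes 0 members were called on the Up side by the authors' DESeq2 comparison, and at an unadjusted p under 0.05 between 0 (LRBA) and 4 (CTNNA2) were. ANK3 is described with the muscle and heart genes.

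**Figure D5:**
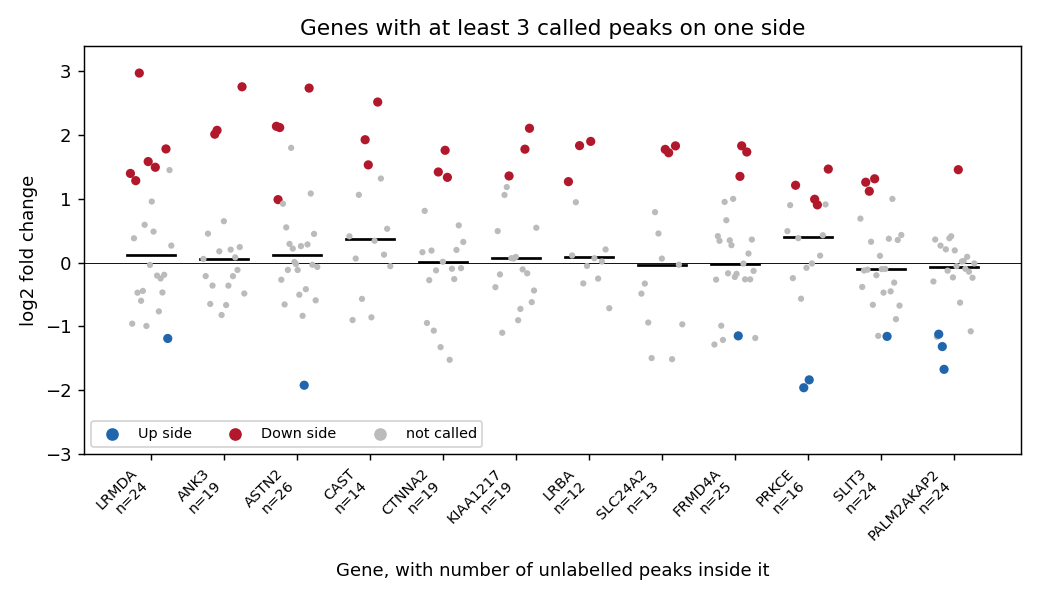
Log2 fold change (vertical axis) of every member of the 12 genes with at least 3 called members on 1 side, in order of position within each gene, with called members in red (Down side) or blue (Up side), the rest in grey and the gene's median as a black bar. The medians lie between -0.11 and 0.41 while single members reach 2.97 and -1.96.

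The changes of neighbouring members were alike only at short distance. Across the 183 pairs of adjacent members under 2 kb apart the Pearson r of their changes was 0.25, and 59.6% had the same sign. For the 418 pairs 2 to 10 kb apart r was 0.04, for 694 pairs at 10 to 30 kb 0.05 and for 1036 pairs at 30 to 100 kb 0.00. Adjacent peaks in shorter genes gave 0.19, 0.10, 0.03 and 0.04 over the same gaps. These are descriptions over peaks that share libraries. Of the 23 pairs of neighbouring changed members within 50 kb, 15 were on the same side and 8 on opposite sides. Since 172 of the 246 called members lie on the Down side, same-side pairs would be the more common kind even without likeness between neighbours. Whether 15 exceeds that was not tested. The closest pair, 92 bp apart in ANK3, stood at 2.01 ± 0.54 (SE) and 2.08 ± 0.46 (SE) per the authors' deposited table. The closest opposite pair lay 8.46 kb apart in LPP, at 1.08 ± 0.36 (SE, adjusted p = 0.0456) and -1.56 ± 0.39 (SE, adjusted p = 0.00354) per the authors' deposited table.

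The 10 members with the smallest p on the Down side, 1 per gene, were led by ASTN2 and LRMDA. TTC28, a tetratricopeptide repeat gene, stood at 2.75 ± 0.42 (SE, adjusted p = 7.88e-08) and CELF2, an RNA-binding splicing regulator, at 2.69 ± 0.42 (SE, adjusted p = 1.29e-07) per the authors' deposited table. ERC1, a scaffold of vesicle release sites, had 2.96 ± 0.49 (SE, adjusted p = 6.09e-07) and NBAS, a gene of transport between the Golgi and the endoplasmic reticulum, 1.59 ± 0.26 (SE, adjusted p = 7.39e-07) per the authors' deposited table. HDAC9, a histone deacetylase that binds the muscle factor MEF2, had 2.26 ± 0.38 (SE, adjusted p = 1.76e-06) and SMYD3, a lysine methyltransferase, 2.16 ± 0.37 (SE, adjusted p = 2.1e-06) per the authors' deposited table. RARB, the retinoic acid receptor beta, had 2.67 ± 0.46 (SE, adjusted p = 3.06e-06), 137 kb from the 5′ end, per the authors' deposited table (chromosome 3, 24966204 to 24966744). THSD7B, a thrombospondin repeat gene, had 2.97 ± 0.52 (SE, adjusted p = 3.86e-06) per the authors' deposited table. RARB also had 1 called member on the Up side. These 10 members reached from 3.0-fold to 7.86-fold.

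On the Up side the smallest p belonged to SLC14A2, a urea transporter gene, at -2.04 ± 0.32 (SE, 4.10-fold, adjusted p = 1.7e-07) per the authors' deposited table (chromosome 18, 45359257 to 45359757). PALM2AKAP2 came second. UTRN, the gene of utrophin, a homologue of dystrophin, stood at -2.17 ± 0.37 (SE, adjusted p = 2.29e-06), 45.4 kb from the 5′ end, and TENM4 at -1.34 ± 0.23 (SE, adjusted p = 2.78e-06) per the authors' deposited table. KIF26B, a kinesin-family gene of kidney development, had -1.70 ± 0.33 (SE, adjusted p = 3.69e-05) and MAGI1, a tight junction scaffold, -1.38 ± 0.27 (SE, adjusted p = 3.7e-05) per the authors' deposited table. IMMP2L, a mitochondrial inner membrane peptidase gene, had -1.56 ± 0.30 (SE, adjusted p = 5.09e-05) and CDKAL1, a transfer RNA modifying enzyme gene, -1.49 ± 0.32 (SE, adjusted p = 0.000448) per the authors' deposited table. ASTN2, described above, and DLC1 at -2.15 ± 0.47 (SE, adjusted p = 0.00053), complete the 10 per the authors' deposited table. SLC14A2, CDKAL1 and DLC1 also had 1 called member each on the Down side and KIF26B 2. IMMP2L had 0 called Down side members, but 3 of its 4 members were positive at an unadjusted p under 0.05. The median change over its members was 1.33, opposite in sign to its called member.

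Among 8 muscle and heart structure genes with members, 2 of 87 members changed to the Up side and 7 to the Down side, with a median change of 0.00. These shares, 2.30% and 8.05%, stand beside 2.31% and 5.36% over all members. The Down side share rests on few peaks: of the 7, 3 lie in ANK3, and a pair of those is only 0.092 kb apart. ANK3, the gene of ankyrin G, which anchors sodium channels at the membrane, had 3 of 19 on the Down side, the strongest at 2.76 ± 0.56 (SE, adjusted p = 0.00013) per the authors' deposited table. NEBL, which encodes nebulette of the cardiac Z-disc, had 1 of 15, at 2.48 ± 0.46 (SE, adjusted p = 1.33e-05), 487 kb from the 5′ end, per the authors' deposited table (chromosome 10, 20806176 to 20806775). The median over all NEBL members was -0.35. SGCD, the delta sarcoglycan gene of the dystrophin complex, had 1 of 7, at 1.42 ± 0.32 (SE, adjusted p = 0.000884), and LPP, a focal adhesion gene strong in smooth muscle, 2 of 10 on the Down side and 1 on the Up side, per the authors' deposited table. UTRN had 1 of 7, on the Up side. ANK2, SGCZ and SYNE1 had 0 of 14, 0 of 7 and 0 of 8 by the authors' DESeq2 comparison, with 1, 1 and 1 on the Up side and 2, 1 and 2 on the Down side at an unadjusted p under 0.05, and their best members stood at -1.21 ± 0.41 (SE, adjusted p = 0.0557), -1.99 ± 0.93 (SE, adjusted p = 0.236) and -1.18 ± 0.54 (SE, adjusted p = 0.221) per the authors' deposited table. That SGCZ peak had a mean count of 9.27, the lowest of all peaks.

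The counts of the next lists stand beside the Up side share of 2.31% and the Down side share of 5.36% over all members. Of 319 members in 26 synaptic and homophilic adhesion genes, 7 changed to the Up side and 11 to the Down side (2.19% and 3.45%). Examples are NRXN3, a neurexin gene, at 2.84 ± 0.55 (SE, adjusted p = 4.17e-05), CNTNAP5 at 2.07 ± 0.38 (SE, adjusted p = 1.01e-05) and, with a negative change, NLGN1, a neuroligin gene, at -1.24 ± 0.35 (SE, adjusted p = 0.011) per the authors' deposited table. NLGN1 and OPCML each had 1 called member on either side. The OPCML member with the smallest p stood at 1.29 ± 0.31 (SE, adjusted p = 0.00202) and CSMD2 at -1.35 ± 0.34 (SE, adjusted p = 0.00336) per the authors' deposited table. Of 86 members in 9 cadherin and catenin genes, 0 changed to the Up side and 5 to the Down side by the authors' DESeq2 comparison (5.81%), with 6 and 11 at an unadjusted p under 0.05. These were in CTNNA2, CTNND2, the delta catenin gene, at 2.11 ± 0.39 (SE, adjusted p = 1.96e-05), and PCDH15, a protocadherin gene, at 1.19 ± 0.31 (SE, adjusted p = 0.00554) per the authors' deposited table. Of 89 members in 9 glutamate and GABA receptor genes and their anchors, 0 changed to the Up side and 3 to the Down side by the authors' DESeq2 comparison (3.37%), with 5 and 9 at an unadjusted p under 0.05. These were in GABRG3 at 2.89 ± 0.52 (SE, adjusted p = 9.48e-06), GPHN at 2.19 ± 0.53 (SE, adjusted p = 0.00232) and GRIK2 at 1.80 ± 0.48 (SE, adjusted p = 0.0058) per the authors' deposited table. The GPHN peak lies also inside the shorter gene PLEKHH1.

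Of 238 members in 19 guidance and receptor phosphatase or kinase genes, 6 changed to the Up side and 14 to the Down side (2.52% and 5.88%, beside 2.31% and 5.36% of all members). SEMA5A, a semaphorin, stood at 1.57 ± 0.29 (SE, adjusted p = 2.24e-05) and PTPRT at 1.66 ± 0.34 (SE, adjusted p = 0.000159) on the Down side, and PTPRG at -1.95 ± 0.52 (SE, adjusted p = 0.00635) and PTPRN2 at -2.20 ± 0.65 (SE, adjusted p = 0.0185) on the Up side, per the authors' deposited table. PTPRT and PTPRN2 each had 1 called member on either side, while SEMA5A had 1 on the Down side and PTPRG 2 on the Up side. In PTPRM the best member, 10.6 kb from the 5′ end, stood at -0.87 ± 0.27 (SE, adjusted p = 0.0281) per the authors' deposited table. Of 104 members in 10 ion channel genes, 3 changed on each side (2.88% each). KCNMA1, the large-conductance calcium-activated potassium channel, stood at 2.30 ± 0.42 (SE, adjusted p = 1.37e-05) and KCNIP4, a potassium channel interacting protein, at -1.70 ± 0.38 (SE, adjusted p = 0.000566) per the authors' deposited table. CACNA2D3, a calcium channel auxiliary subunit gene, had 1.87 ± 0.37 (SE, adjusted p = 9.05e-05) at a peak also inside LRTM1 and -1.26 ± 0.40 (SE, adjusted p = 0.0346) elsewhere in the gene, per the authors' deposited table.

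Of 464 members in 35 kinase, phosphodiesterase, small GTPase and scaffold genes, 11 changed to the Up side and 21 to the Down side (2.37% and 4.53%, beside 2.31% and 5.36% of all members). Beside ERC1, FRMD4A, MAGI1 and PRKCE, PLCB1, a phospholipase C, stood at 1.99 ± 0.37 (SE, adjusted p = 1.31e-05) and PARD3, a polarity gene with 1 called member on either side, at -1.47 ± 0.36 (SE, adjusted p = 0.00198) per the authors' deposited table. The best PDE4D member stood at 1.20 ± 0.28 (SE, adjusted p = 0.00136) per the authors' deposited table, on the same side as its symbol-bearing peak. Of 310 members in 28 transcription, chromatin and RNA-binding genes, 8 changed to the Up side and 14 to the Down side (2.58% and 4.52%). On the Up side AFF3, a nuclear elongation cofactor, stood at -1.72 ± 0.38 (SE, adjusted p = 0.000607), ZFHX3, a homeobox zinc finger gene known from atrial fibrillation, at -1.53 ± 0.37 (SE, adjusted p = 0.00166) and PPARGC1A, the coactivator of mitochondrial biogenesis, at -1.50 ± 0.40 (SE, adjusted p = 0.00595) per the authors' deposited table. ZFHX3 also had 2 of its 25 members on the Down side, the higher at 2.36 per the authors' deposited table.

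Of 109 members in 13 matrix and proteoglycan genes, 0 changed to the Up side and 6 to the Down side by the authors' DESeq2 comparison, in 6 different genes (5.50%, beside 5.36% of all members), with 7 and 9 at an unadjusted p under 0.05. Beside THSD7B these included EYS, a photoreceptor matrix gene, at 1.76 ± 0.43 (SE, adjusted p = 0.00246) and NELL1, a secreted regulator of bone formation, at 2.40 ± 0.66 (SE, adjusted p = 0.00876) per the authors' deposited table. Of 150 members in 10 genes at common fragile sites, places where chromosomes break under replication stress, 6 changed to the Up side and 11 to the Down side (4% and 7.33%, beside 2.31% and 5.36% of all members). Beside ASTN2 and IMMP2L these included LRP1B at 2.97 ± 0.58 (SE, adjusted p = 4.51e-05) and MACROD2 at -1.65 ± 0.47 (SE, adjusted p = 0.0118) per the authors' deposited table. MACROD2 also had 2 called members on the Down side. In IMMP2L the called member was negative, while the median over its 4 members was 1.33. The 131 genes in no list held 1252 members, of which 2.48% changed to the Up side and 6.15% to the Down side. The lists were chosen with earlier results of these data known, and their counts are given as descriptions.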

How the data were processed

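Per the labels' protocols, 50000 to 100000 cells per sample were taken and paired-end reads of 42 bp were sequenced. The submitters' processing notes name BWA, MACS2, DESeq2 and the builds GRCh38 and hg38. Read shifting, the treatment of duplicates and repeats, and pooling before peak calling were not found in those sources, and each could change a peak's count. Per the file headers, the authors' deposited table holds a mean normalized count (a signal over all libraries), a log2 fold change and its SE, a Wald score, and a p-value with its adjusted value. The score equalled the log2 fold change over its SE to within 1.72e-07. The depth of each library is unknown, so the precision is that of the SE. The titles call the replicates biological without saying that they are separate differentiations, so the p-values cover only how these 4 libraries vary.

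Gene bodies, starts and strand came from RefSeq (GRCh38.p14), exons and introns are not resolved here, and whether the table's starts count from 0 or 1 is not stated. Selection, reweighting (10 bins of mean count) and counts were made in Python 3.11.15 with pandas 2.3.3 and scipy 1.17.1 and tested on simulated data. No test beyond the authors' comparison was made. The design also held a test on counts per library, which could not be fitted to these values. The members, lists and alternatives were chosen with earlier results of these data known. Genes were named by rule: the 10 with most members, the 10 smallest p per side, those with 3 or more called on 1 side, up to 3 per list and side, and every muscle and heart gene; not every gene so chosen is printed. Alternatives were other thresholds, gene lengths, bins, comparison sets, containment rules and recentred fold changes.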

Additional observations from a re-analysis of the deposited data

How the results depend on the processing

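No paired analysis was possible because the table gives 1 comparison and nothing per sample. For that reason leaving out each library, other size factors and filters on counts per library were not run. On the Up side the 74 called members became 37 at an adjusted p under 0.01, 126 at under 0.1 and 196 by the authors' marking. On the Down side the 172 became 97 at under 0.01, and at under 0.1 and by the marking stayed within 1.5 times, at 211 and 242. The share of all peaks that carry the marking was not counted here, so 196 and 242 have no background beside them. Genes of 300 kb or more gave 150 and 329 of 6215 peaks (2.41% and 5.29%) and genes of 1000 kb or more 19 and 41 of 901, since members are added or removed. Keeping the 993 members whose mean count reached the median of all peaks, and readjusting p over such peaks, 50 and 92 were called (5.04% and 9.26%, against 4.24% and 4.90% in shorter genes). This filter sets no upper limit on mean count. The excess on the Down side over matched shorter-gene peaks was 3.14 percentage points against genes under 100 kb and 0.57 against peaks outside genes. With 20 bins, or bins of SE or width, the excess ran from 1.72 to 1.96. None of these comparisons was matched on distance to a gene end. Genes with called members on both sides numbered 13 at under 0.01 and 56 at under 0.1. The median change of members was 0.03 after recentring on the running median by mean count, which itself runs from -0.79 to 0.09. Leaving out each gene in turn, with no p recomputed, gave 71 to 74 and 166 to 172 called members, which only restates the largest counts per gene. Of 109 peaks named by rule, 21 were no longer called at under 0.01. Recentring could not turn the sign of any of these 109, and no p was recomputed for it. The smallest change among them, -0.87 in PTPRM, is larger in size than any value of the running median. Peaks printed for other reasons, such as that of SYT1, are not among the 109. Low mean counts limit what can be called: with mean counts under 24.99, 17 of 802 members passed.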
